A study of Homo sapiens with 3 samples.

Results

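YBX1 peaks on elements of the ERVL family of endogenous retroviruses were described in HEL cells, a human erythroleukaemia line with a mutated JAK2 gene. The members were the rows of 2 deposited peak lists whose repeat annotation gave the class LTR and the family ERVL exactly, on the autosomes. Replicate 1 held 668 such peaks of 22874 and replicate 2 held 408 of 17285, or 1076 of 40159 in all. A further 8 and 7 ERVL peaks on the X and Y chromosomes, and 3 and 2 on alternative contigs, were left out by the rule. YBX1 was immunoprecipitated from formaldehyde-fixed, sheared chromatin of untreated cells in 2 libraries, and 1 input library of the same line served both as control. The kept tags numbered 10010819 in replicate 1, 9926271 in replicate 2 and 74780414 in the input. All libraries came from a single established line, and whether the replicates were separate cultures is not stated in the labels. With 1 immunoprecipitated group there was no comparison of conditions, so sets of peaks are described with counts, medians and 95% Wilson intervals. Differences between sets of peaks were not tested.

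ERVL elements are the remains of retroviruses that entered the germ line of mammalian ancestors. A complete copy has internal sequence, which holds the viral genes, between a pair of long terminal repeats (LTRs), which hold promoter and enhancer signals; recombination between the LTRs often leaves a solo LTR. The elements named MLT2 are LTRs of this family, the other LTR names here include LTR16, LTR33 and the MER21 group, and names that end in -int are internal sequence. YBX1 carries a cold-shock domain through which it contacts single-stranded nucleic acids, and it is found in the nucleus and the cytoplasm.

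ERVL was the most frequent LTR family in both lists, and most of its peaks lay on MLT2 elements. It made up 3.10% of the autosomal peaks of replicate 1 (interval 2.88% to 3.34%) and 2.52% of those of replicate 2 (2.29% to 2.77%). The related family ERVL-MaLR had 296 and 171 peaks, and ERV1 had 164 and 104. MLT2 elements held 504 and 323 ERVL peaks, other ERVL LTRs 94 and 47, and internal sequence 70 and 38. The share of the genome that each family covers was not used here, so these counts do not measure a preference.

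A single element, MLT2B3, held 136 peaks in replicate 1 and 92 in replicate 2, which is 20.4% and 22.5% of all ERVL peaks. Its relatives MLT2B1, MLT2B2 and MLT2B4 came next, with 75 and 48, 65 and 41, and 61 and 35 peaks. With MLT2B5, at 8 and 2, the MLT2B group reached 345 peaks (51.7%) and 218 peaks (53.4%). MLT2D had 53 and 29 peaks, and MLT2A1, an LTR of the HERVL group, had 37 and 35. MLT2A2, MLT2C2, MLT2C1 and MLT2F had between 12 and 20 peaks in replicate 1 and between 8 and 12 in replicate 2. MLT2B3, MLT2B1 and MLT2B2 led both lists in this order, and in replicate 2 MLT2A1 tied with MLT2B4.

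Outside MLT2, no ERVL element reached 20 peaks in either list. The internal sequences ERV3-16A3_I-int, ERVL-B4-int, ERVL-E-int and HERVL-int had 17 and 9, 14 and 7, 12 and 7, and 9 and 7 peaks. HERVL18-int had 5 and 2, and MER21-int had 4 in each list. Among the other LTRs, MER21A had 10 and 5, MER21C 9 and 6, MER21B 6 and 4, LTR16A 8 and 5, LTR33 10 and 1, and MER74A 6 and 3. LTR16A1 (4 and 3), LTR79 (3 and 4) and MER54B (2 and 3) completed the 26 elements with at least 5 peaks over both lists. In all, 60 element names occurred, of which 17 had a single peak; the names with under 5 peaks held 45 and 15 peaks.

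**Figure D1:**
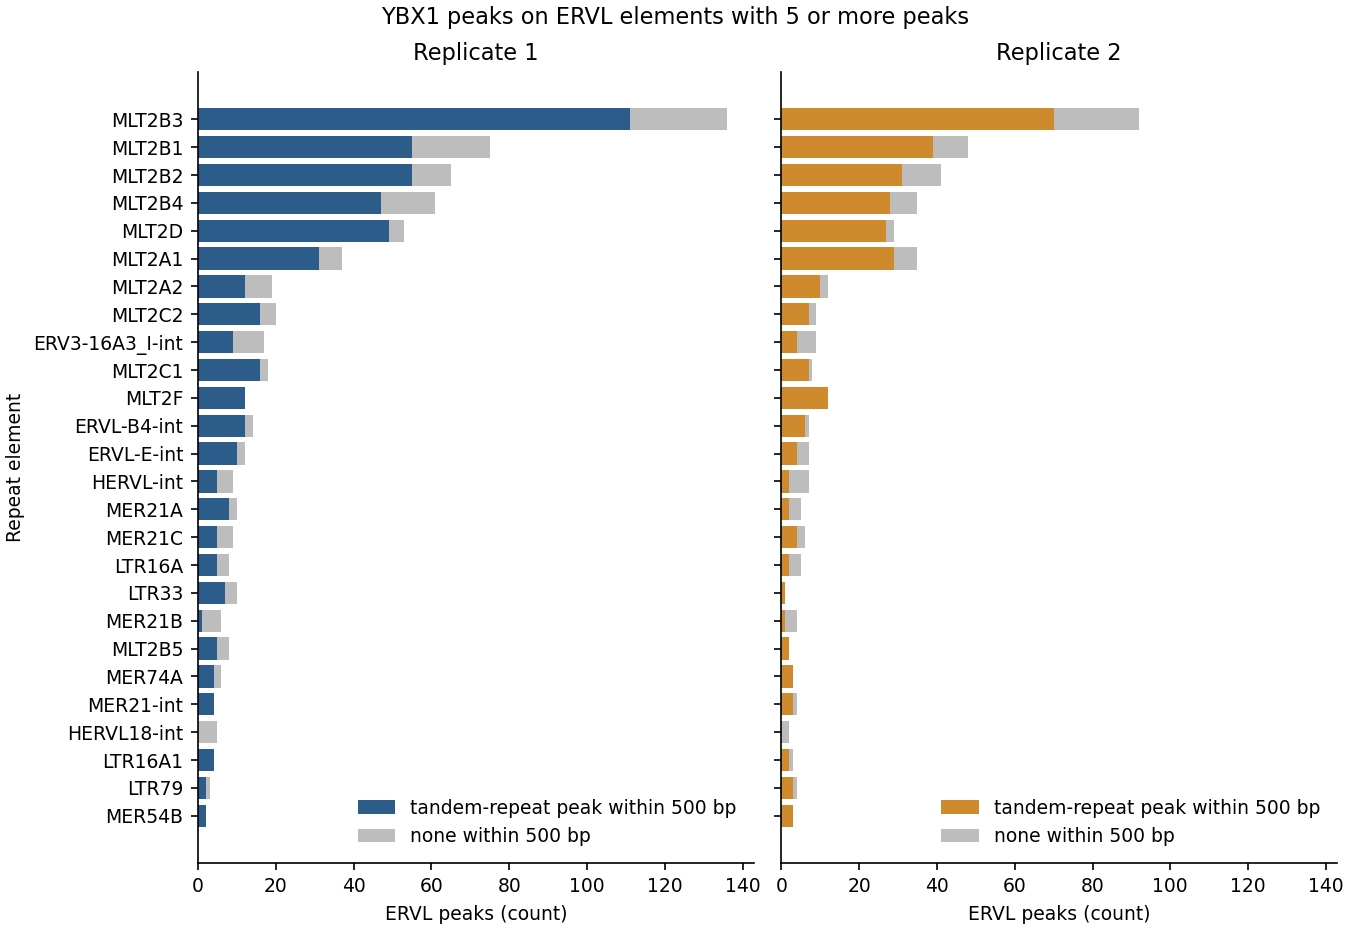
Number of YBX1 peaks (horizontal axis, count) on each ERVL element with 5 or more peaks over both lists, with replicate 1 on the left and replicate 2 on the right. The coloured part of a bar counts peaks with a tandem-repeat peak of either list within 500 bp and the grey part those without. MLT2B3 leads in both replicates with 136 and 92 peaks.

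ERVL peaks were similar in size to other peaks off tandem repeats and rested on few tags. The median peak held 7 tags in each list, with a range of 5 to 139 in replicate 1 and 5 to 92 in replicate 2, against medians of 9 and 8 for all autosomal peaks and of 7 and 6 for those off tandem repeats. Peaks with 5 tags, the smallest number listed, made up 28.6% and 31.1% of the ERVL peaks against 21.8% and 21.9% of all peaks and 32.2% and 34.6% of peaks off tandem repeats. The median width was 64.5 bp and 60 bp, against 61 bp and 59 bp off tandem repeats. The caller's fragment size d was 20 bp, less than the tag length of 36 bp, and its part in the widths was not tested.

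Fold enrichment is the authors' ratio of tags at a peak's summit to the local background. Its median over ERVL peaks was 48.2 in replicate 1 (quartiles 37.4 and 63.6) and 48.6 in replicate 2 (37.7 and 65.9). All autosomal peaks had medians of 53.9 and 54.4, peaks on tandem repeats of 68.5 and 68, and peaks off tandem repeats of 43.4 and 40.8. Within ERVL the medians were 51.0 and 50.2 on MLT2, 41.0 and 40.8 on other LTRs, and 43.1 and 38.7 on internal sequence. ERVL-MaLR had 40.5 and 40.8, and ERV1 40.5 and 40.3, so the ERVL median stood above those of both families. MLT2 stood furthest above them, and in replicate 1 the other kinds of ERVL peak also stood above them. At the genome-wide background 1 tag at a summit gives a fold of 13.5 in replicate 1 and 13.6 in replicate 2. The medians of the ERVL kinds and of both other families all lay within a step of that size. For 29.8% and 29.4% of ERVL peaks the fold is relative to the genome-wide background and not to local input. This held for 36.1% and 34.4% of all autosomal peaks and for 27.5% and 24.7% of those off tandem repeats.

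The leading MLT2 elements had similar fold enrichments. MLT2B3 had medians of 53.9 and 51.2, MLT2B1 48.2 and 50.4, MLT2B2 45.6 and 50.2, MLT2B4 50.3 and 43.7, MLT2D 52.0 and 44.3, and MLT2A1 47.1 and 52.3. The quartiles of MLT2B3 alone, 40.4 to 74.7 in replicate 1 and 39.3 to 56.4 in replicate 2, spanned all of these medians. The strongest ERVL peak of replicate 1 was an MLT2D peak at chr3:99933205-99933401 (hg19, as are all coordinates here), with 55 tags and a fold enrichment of 285. The annotation named for it TBC1D23, TMEM30C, CMSS1 and FILIP1L. The next was an MLT2F peak near GLI2, a transcription factor of hedgehog signalling, at chr2:121757893-121758052 with 49 tags and a fold of 229. The strongest of replicate 2 was an MLT2B1 peak at chr6:72194342-72194433 near LINC00472 and MIR30A, with 22 tags and a fold of 218. All 3 overlapped a peak of the other list, and each had a tandem-repeat peak at a gap of 0 bp.

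The next question was how often an ERVL peak was found again in the other library. In replicate 1, 290 ERVL peaks (43.4%, interval 39.7% to 47.2%) overlapped a replicate 2 peak of any kind by at least 1 bp, against 53.8% of all autosomal peaks. In replicate 2, 276 (67.6%, 63.0% to 72.0%) overlapped a replicate 1 peak, against 77.5%. Peaks off tandem repeats were found again in 36% and 58.9% of cases, so the ERVL shares lay below those of the whole lists and above those of peaks off tandem repeats. The shares were 46.6% and 71.5% for MLT2 peaks, 28.7% and 48.9% for other ERVL LTRs, and 40% and 57.9% for internal sequence. ERVL-MaLR peaks stood at 33.1% and 55.0% and ERV1 peaks at 31.7% and 50%. MLT2B3 peaks were found again in 72 of 136 cases (52.9%) and 65 of 92 cases (70.7%).

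The share found again grew with the number of tags. Among ERVL peaks of replicate 1 it was 18.8% with 5 tags, 35% with 6 to 7, 42.4% with 8 to 10, 72.7% with 11 to 20 and 94.1% (48 of 51) with at least 21. In replicate 2 the same ranges gave 48.0%, 59.5%, 81.0%, 94.4% and 100% (25 of 25). All autosomal peaks gave 18.4%, 30.7%, 49.2%, 78.8% and 97.0% in replicate 1 and 49.0%, 68.8%, 83.9%, 94.2% and 97.4% in replicate 2. At equal tag number ERVL peaks thus had no steady order against all peaks: in replicate 1 they stood above them at 5 to 7 tags and below from 8 on, and in replicate 2 below them up to 10 tags and above from 11 on. LTR peaks outside ERVL gave 12.3%, 26.1%, 40.3%, 77.0% and 89.5% in replicate 1 and 37.2%, 51.2%, 72.3%, 86.4% and 100% in replicate 2. ERVL stood above them in all ranges but 11 to 20 tags in replicate 1 and the last range of replicate 2, where both were at 100%. Peaks without a repeat label gave 14.7%, 24.1%, 40.5%, 66.3% and 91.5% in replicate 1. In replicate 2 they gave 36.0%, 53.0%, 66.2%, 76.3% and 84.6%, so ERVL stood above them in every range. Peaks on tandem repeats stood above ERVL in all ranges but the last of replicate 2, at 99.4% against 100%.

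The partner of an ERVL peak in the other list did not always carry an ERVL label. It was the same element for 204 of the 290 replicate 1 peaks (70.3%) and 202 of the 276 replicate 2 peaks (73.2%). A tandem repeat was the label of the partner for 74 (25.5%) and 67 (24.3%), and for most of these, 68 and 58, the repeat unit was AGAT. AGAT here stands for arrays that the annotation names TAGA or TCTA, which are the same repeat read on opposite strands. Each peak carries 1 label in the annotation, so overlapping peaks of both lists can be named for the LTR in one and for the array in the other.

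Most ERVL peaks lay beside a peak on a tandem repeat. Of the replicate 1 ERVL peaks, 515 (77.1%, interval 73.8% to 80.1%) had a tandem-repeat peak of either list within 500 bp, against 57.4% of all autosomal peaks that lay off tandem repeats. Of the replicate 2 ERVL peaks, 307 (75.2%, 70.8% to 79.2%) had one, against 55.4%. Counting the peaks of the same list alone gave 64.1% and 59.6%. The share was 81.2% and 81.1% for MLT2, 64.9% and 53.2% for other ERVL LTRs, and 64.3% and 52.6% for internal sequence. It was 58.8% and 60.8% for ERVL-MaLR and 42.7% and 40.4% for ERV1, so MLT2 stood above both families in each list. SINE peaks stood at 71.0% and 64.8% and LINE peaks at 61.5% and 64.7%. MLT2 stood above these too, whereas the other kinds of ERVL peak stood below SINE in both lists.

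The elements differed in this. All 12 MLT2F peaks of each list lay beside a tandem-repeat peak, as did 49 of 53 (92.5%) and 27 of 29 (93.1%) MLT2D peaks. For MLT2B3 the counts were 111 of 136 (81.6%) and 70 of 92 (76.1%), and for MLT2B1 they were 55 of 75 and 39 of 48. At the other end, 1 of 6 and 1 of 4 MER21B peaks lay beside one, and 0 of 5 and 0 of 2 HERVL18-int peaks. ERV3-16A3_I-int had 9 of 17 and 4 of 9, and HERVL-int had 5 of 9 and 2 of 7. The internal elements rest on few peaks.

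These neighbours were close. A tandem-repeat peak lay within 100 bp of 58.4% and 60.3% of ERVL peaks and within 200 bp of 75.4% and 73.3%, whereas a window of 5000 bp gave 78.0% and 75.7%. Beyond 200 bp the share hardly grew. The neighbour's unit was AGAT for 469 of 515 ERVL peaks (91.1%) and 279 of 307 (90.9%), against 66.9% and 68.1% among all peaks off tandem repeats that had a neighbour. ATCC, the unit TGGA or TCCA, followed with 30 and 18. In ERVL-MaLR the AGAT share was 86.2% and 88.5%, and in ERV1 it was 85.7% and 88.1%, so this unit was the usual neighbour of LTR peaks of each family. It was 81.0% and 88.2% for SINE elements and 52.2% and 47.2% for LINE elements, so a high share was not particular to LTR peaks.

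**Figure D2:**
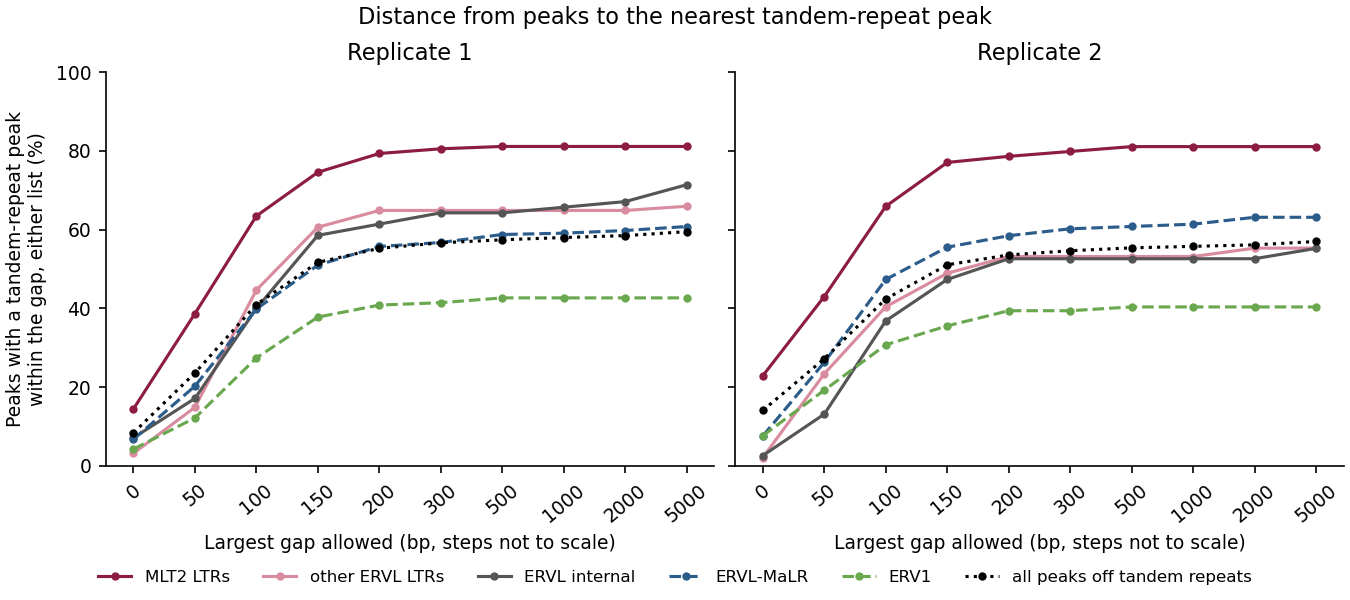
Share of peaks (vertical axis, percent) with a tandem-repeat peak of either list within the gap on the horizontal axis (bp, in unequal steps), for replicate 1 on the left and replicate 2 on the right. Solid lines are the 3 kinds of ERVL peak, dashed lines the families ERVL-MaLR and ERV1, and the dotted line all autosomal peaks off tandem repeats. At 500 bp the MLT2 line stands at 81.2% and 81.1%, and it is nearly flat beyond 200 bp.

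The strongest array peak beside an ERVL peak nearly always had the higher fold, as also held in the other LTR families. In replicate 1, 428 ERVL peaks had a tandem-repeat peak of the same list within 500 bp, and the strongest such neighbour had the higher fold enrichment for 401 of them (93.7%). In replicate 2 this held for 225 of 243 (92.6%). The shares were 95.3% and 95.7% for ERVL-MaLR and 87.9% and 91.4% for ERV1. The median fold of the strongest neighbours of ERVL peaks was 110 against 45.0 for the ERVL peaks in replicate 1, and 106 against 47.1 in replicate 2. Their median tag number was 24 against 7 and 22 against 6. The median gap to the nearest array peak was 72 bp and 76 bp, and the median distance between the centres of both peaks was 174 bp (quartiles 144 and 208) and 162 bp (133 and 194). The labels' protocol gives the sheared fragments as mostly between 100 and 600 bp, so many of these distances are within the length of a fragment. How far tags of the array contribute to the ERVL peak beside it was not tested.

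MLT2 peaks lay mostly on 1 side of their array. An AGAT array reads TAGA on one strand and TCTA on the other, which gives it a direction, and the label was taken as the reading of the plus strand. In replicate 1, 215 of 311 MLT2 peaks beside an AGAT array of the same list (69.1%, interval 63.8% to 74.0%) lay 3′ of it along the TAGA strand. In replicate 2, 142 of 192 did (74.0%, 67.3% to 79.7%). Among all peaks off tandem repeats the shares were 48.4% and 50.7%. The shift was seen for either label: beside TAGA arrays 106 of 158 and 71 of 96 MLT2 peaks lay to the right, and beside TCTA arrays 109 of 153 and 71 of 96 lay to the left.

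Among the 6 MLT2 elements with the most peaks, MLT2B3 had the highest share in replicate 1, with 72 of 80 peaks (90%) on the 3′ side, and in replicate 2 it had 45 of 49 (91.8%). MLT2B2 had 27 of 38 and 19 of 27, MLT2B1 29 of 45 and 19 of 29, and MLT2B4 25 of 41 and 14 of 21. MLT2A1 had 16 of 25 (64%) in replicate 1 and 15 of 16 (93.8%) in replicate 2. MLT2D was even, with 21 of 41 (51.2%) and 11 of 22 (50%). The shares thus varied within MLT2, and the difference between MLT2B3 and MLT2D was not tested. Several peaks can lie beside the same array, and the same arrays can recur in both lists. The peaks are therefore not independent, and the lists are not separate checks. No count by locus was made for MLT2D. The MLT2D peaks lay beside arrays more often than the MLT2B3 peaks, but about evenly on both sides.

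ERVL peaks outside MLT2 lay on the 3′ side less often than on the 5′ side in both lists. Other LTRs had 17 of 41 and 5 of 18 peaks there, and internal sequence 9 of 33 (27.3%, interval 15.1% to 44.2%) and 6 of 16. ERVL-MaLR had 45.3% and 57.0%, ERV1 48.9% and 46.7%, and LINE elements 49.7% and 51.8%. The strand of the elements is not in the deposited lists, so the side relative to the LTR's own direction was not measured.

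**Figure D3:**
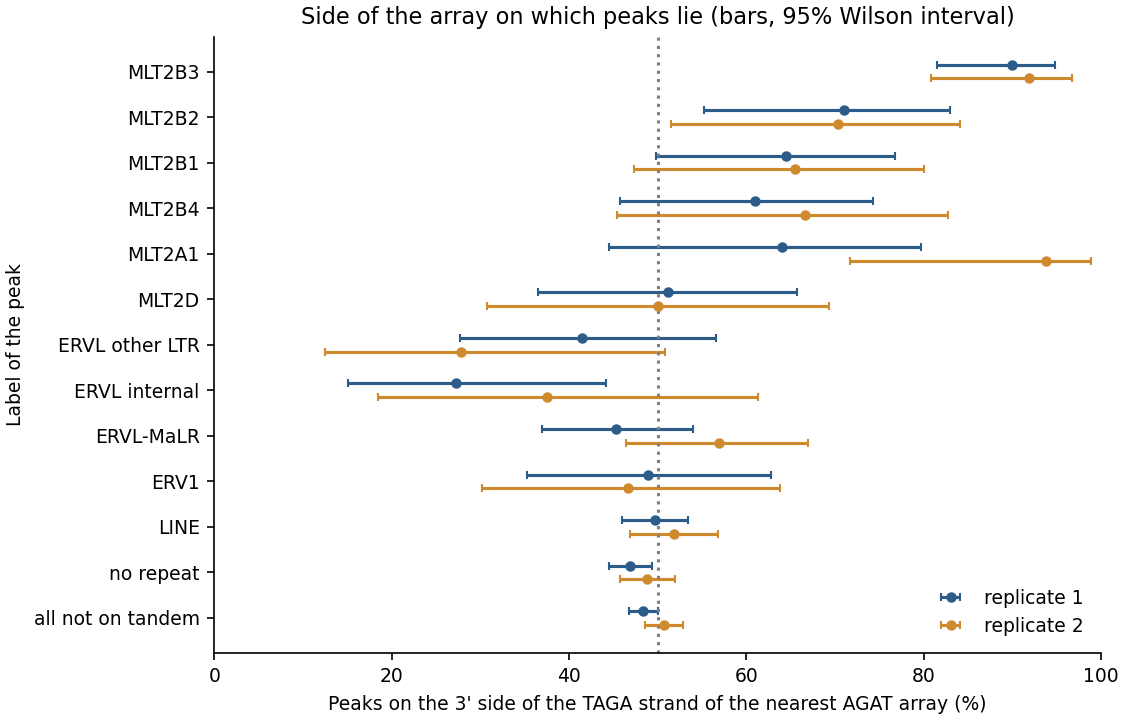
Share of peaks (horizontal axis, percent) on the 3′ side of the TAGA strand of the nearest AGAT array of the same list, by label of the peak, with replicate 1 in blue and replicate 2 in orange. Bars are 95% Wilson intervals, which cover counting error alone, and the dotted line marks 50%. MLT2B3 stands at 90% and 91.8%, whereas MLT2D and all peaks off tandem repeats stand near the line.

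Several peaks of an element could lie at the same place, so the peaks were also counted by locus, with ERVL peaks of either list merged over gaps of up to 500 bp. The 1076 peaks fell into 682 loci, of which 404 had 1 peak, 191 had 2 and 87 had 3 or more, with at most 6. Both lists had a peak at 224 loci (32.8%), replicate 1 alone at 330 and replicate 2 alone at 128. A tandem-repeat peak lay beside 508 loci (74.5%). Of 513 loci with an MLT2 peak, 417 (81.3%) lay beside one.

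The side counts were similar when loci were counted. Of 325 MLT2 loci beside an AGAT array, 229 had peaks on the 3′ side alone, 81 on the 5′ side alone and 15 on both. At 104 loci both lists gave a side, and at 97 of them it was the same. MLT2B3 had 88 such loci, of which 81 had peaks on the 3′ side, 7 on the 5′ side and 0 on both.

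ERVL peaks with no tandem-repeat peak of either list within 500 bp numbered 153 in replicate 1 and 101 in replicate 2, of which 95 and 61 were MLT2. MLT2 peaks were found again about as often without such a neighbour (47.4% and 70.5%) as with one (46.5% and 71.8%). For the other ERVL peaks the shares were 22.4% and 32.5% without, and 39.6% and 71.1% with. An ERVL peak that overlaps a tandem-repeat peak of the other list counts as beside it and as found again, which raises the second pair of shares. With neighbours of the same list alone, MLT2 peaks were found again in 61.1% and 74.2% of cases without and 39.5% and 70.0% with. Of these MLT2 peaks without a neighbour, 72 of 167 and 59 of 120 had a tandem-repeat peak of the other list within 500 bp. Those that overlap it count as found again, which raises the shares without. The MLT2 peaks without a neighbour in the same list also held more tags, with medians of 9 and 9 against 7 and 6. The share found again grew with tags, and sets of equal tag number were not compared here. MLT2 peaks without a neighbour stood higher in replicate 1 under both definitions, and the order in replicate 2 depended on the definition. Each definition raises the shares of 1 side, so the order does not show whether a neighbour matters. The other ERVL peaks had 28.8% and 35.6% without and 37.4% and 72.5% with. The median fold of MLT2 peaks was 53.9 and 54.4 without a neighbour in either list, and 50.5 and 49.9 with one.

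Overlapping ERVL peaks of both lists merged into 200 shared regions, and the element name was the same in both lists at all 200. Since the peaks had to overlap and both carry an ERVL label, the equal names are no separate check of the lists. MLT2 held 158 (79%), MLT2B 113 and MLT2B3 alone 49. They lay between genes in 171 cases (85.5%) and in introns in 29, with 0 at promoters or exons, and 77 had no gene named. The median fold enrichment was 53.9 in replicate 1 and 48.6 in replicate 2, on 9 and 7 tags. The folds lay within a factor of 1.5 of each other at 145 regions (72.5%), with the higher value in replicate 1 at 113 and in replicate 2 at 86. Over the 200 regions the log2 folds of both lists had a Pearson correlation of 0.525 and a Spearman correlation of 0.488. At the 49 regions where the genome-wide background entered both folds, these were 0.580 and 0.564. These regions share the input library and were chosen for a call in both lists, so the values are a description.

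Regions away from tandem-repeat peaks led the shared set when ranked by the lower fold. The set required an ERVL label in both lists. The 74 and 67 ERVL peaks whose partner was labelled as a tandem repeat did not enter it by that partner. The MLT2D peak of fold 285 in replicate 1, beside an array, stood at place 183, since its region had a fold of 26.0 in replicate 2. The ranking thus depends in part on the labels. The lower of a region's folds had a median of 40.5 over the 144 regions beside a tandem-repeat peak and 50.9 over the 56 that were not. Of the 12 regions with the highest lower fold, all were MLT2, and 10 had no tandem-repeat peak within 500 bp.

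The leading pair were MLT2B2 elements of chromosome 1 with wide peaks. The first, at chr1:50747599-50747923 between genes near ELAVL4, which encodes a neuronal RNA-binding protein, had fold enrichments of 151 in replicate 1 and 144 in replicate 2, on 105 and 82 tags. The second, at chr1:30408283-30408640 near LOC101929406, had 130 and 158 on 91 and 92 tags. The peaks of these regions were 294 to 342 bp wide, against an ERVL median of 64.5 bp and 60 bp, and the nearest tandem-repeat peak lay 22235 bp and 160914 bp away. Both had weaker peaks without a repeat label next to them in each list.

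The other strong regions were narrow. An MLT2C2 region at chr5:115042383-115042484, named for TMED7 of vesicle transport and CDO1, a cysteine dioxygenase, among others, had folds of 121 and 122 on 14 tags each. An MLT2B3 region at chr2:149582144-149582202 near KIF5C, a kinesin of neurons, and EPC2 had 142 and 113 on 18 and 9 tags. An MLT2B3 region in an intron of ANK2, which encodes the membrane adaptor ankyrin-B, at chr4:113771383-113771468 had 108 and 109 on 11 and 13 tags. At the genome-wide background 4 tags at a summit give a fold of 53.9 in replicate 1 and 54.4 in replicate 2, which sets the scale for such narrow peaks.

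MLT2B1 held 5 of the 12. The region at chr12:99005693-99005806, named for TMPO of the nuclear lamina, the mitochondrial phosphate carrier SLC25A3, the apoptosis gene APAF1 and others, had 111 and 99.1. The region at chr15:60359666-60359781 near FOXB1, a forkhead transcription factor, had 95.3 and 103. The region at chr2:234770863-234770933 had 119 and 95.2; the annotation named for it TRPM8, a cold-sensing ion channel, HJURP, a centromere chaperone, and UGT1A genes, which encode glucuronidating enzymes. These 3 regions held between 13 and 28 tags per list and had no tandem-repeat peak within 500 bp.

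The remaining MLT2B1 regions of the group were those beside a tandem-repeat peak, and neither had a gene named. At chr2:78946298-78946377 the folds were 134 and 113 on 22 and 21 tags, with weaker MLT2B1 peaks on both sides in each list. Further out on 1 side, overlapping peaks of both lists had a fold of 148 in replicate 1 with the label MLT1D, an ERVL-MaLR element, and of 109 in replicate 2 with the label TAGA. The same place thus had a tandem-repeat label in one list and an LTR label in the other, so a peak without a labelled tandem-repeat neighbour may still lie near an array. At chr2:193282473-193282660 the folds were 94.4 and 109 on 18 and 31 tags, next to a TCCA peak of fold 40.2 in replicate 1, which lay within the MLT2B1 peak of replicate 2.

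The last members of the group lay in introns of antisense RNA genes. An MLT2B3 region in PVRL3-AS1 at chr3:110772606-110772661 had 94.4 and 95.2 on 10 and 11 tags. An MLT2C2 region in ARHGEF26-AS1 at chr3:153744735-153744842 had 94.4 and 109 on 17 and 15 tags. Their nearest tandem-repeat peaks were 189970 bp and 520303 bp away.

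**Figure D4:**
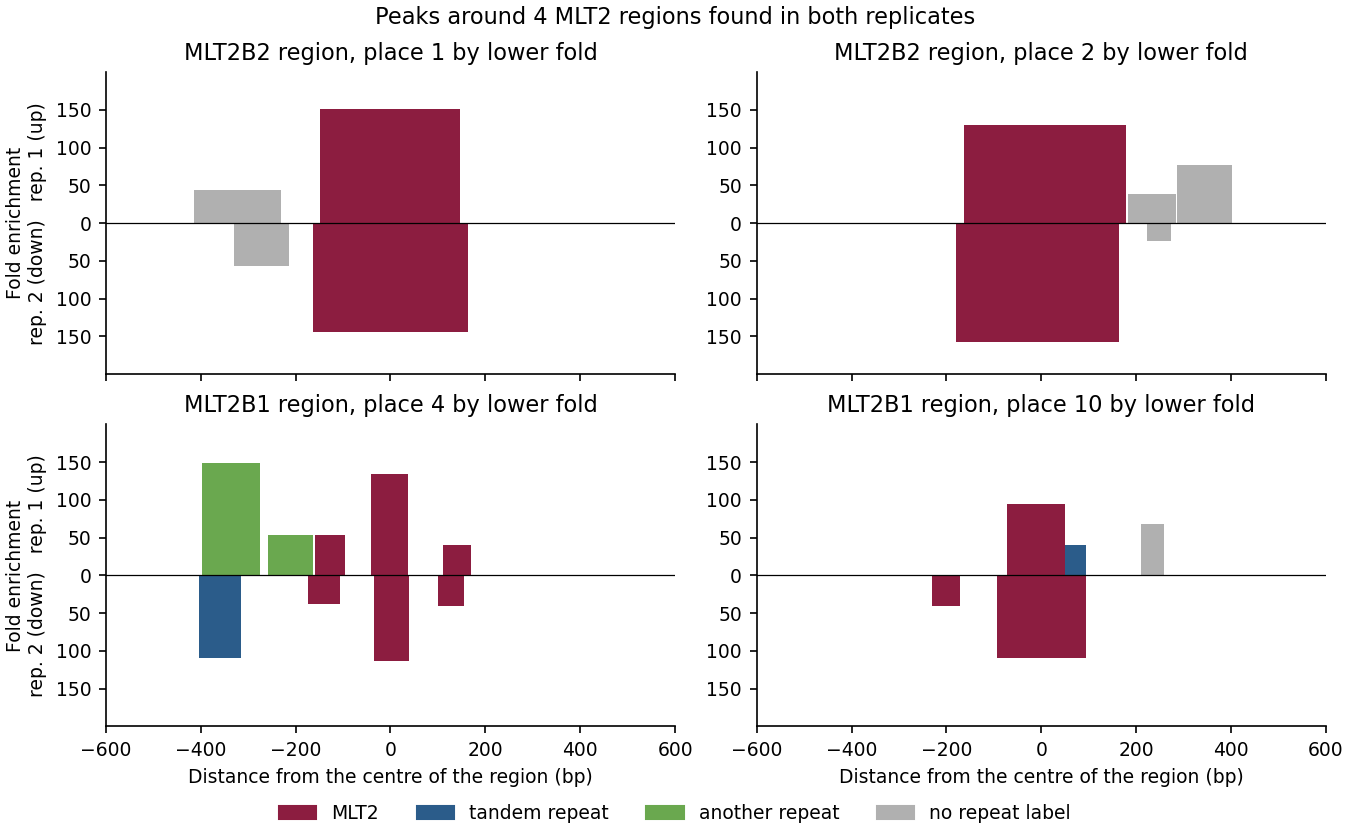
Peaks of both lists around 4 of the 12 strongest shared regions, with the distance from the centre of the region in bp on the horizontal axis. Bars drawn upward are fold enrichments in replicate 1 and bars drawn downward those in replicate 2, each as wide as its peak and coloured by its label. The upper panels show the wide MLT2B2 peaks with weaker unlabelled peaks to 1 side, and the lower panels the MLT2B1 regions with a tandem-repeat peak in 1 list.

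Strong peaks were also called in a single list. The strongest of replicate 1 without a partner were an MLT2B5 peak at chr14:49680024-49680074 with 9 tags and an MLT2B3 peak at chr5:5111157-5111260 near LINC01020 and ADAMTS16 with 21 tags, both at a fold of 108. An MLT2B3 peak near SLC22A12, the urate transporter URAT1, and SLC22A11 at chr11:64270622-64270729 had 14 tags and 87.2. MLT2B1 peaks on chromosomes 16 and 3 both had 80.9, with 12 and 8 tags. In replicate 2 the strongest were an MLT2B2 peak near SPATA13, PARP4 and C1QTNF9 at chr13:24927489-24927576 (11 tags, fold 95.2), an MLT2D peak in an intron of the growth factor gene FGF2 (7 tags, 81.6) and a MER21A peak near GATB (6 tags, 81.6). An MLT2D peak near SOX21, a transcription factor, had 77.6 on 9 tags, and an ERV3-16A3_I-int peak of chromosome 3 had 74.1 on 7. Of the 10 peaks, 8 had no peak of the other list within 5000 bp.

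ERVL peaks lay between genes more often than the lists as a whole. They were intergenic in 540 cases (80.8%) in replicate 1 and 341 (83.6%) in replicate 2, against 57.4% and 58.0% of all autosomal peaks. Introns held 123 (18.4%) and 64 (15.7%), against 38.3% and 37.7%. ERVL-MaLR was intergenic in 76.7% and 73.7% of cases and ERV1 in 75% and 78.8%, so the position was similar in the other LTR families. No gene was named for 34.0% and 37.3% of ERVL peaks, against 20.9% and 20.6% of all. MIR5009 (2 and 3), TIGIT (3 and 2) and DIRC3 (3 and 1) had the most intronic ERVL peaks over both lists, chosen after their values were seen.

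Promoters held 5 ERVL peaks in replicate 1 and 2 in replicate 2, and exons held 0 and 1. The CYP4F8 promoter, of a cytochrome P450 gene, had MLT2B2 peaks of 13 tags (fold 37.7) and 5 tags (34.0) in replicate 1, and the stronger overlapped a replicate 2 promoter peak on a TCTA array with 21 tags (52.1). The promoters of MIR4256 (LTR16A, 5 tags, 28.6), LYSMD4 (MLT2B1, 7 tags, 27.3) and FYCO1, a gene of autophagosome transport (MER21A, 8 tags, 28.5), had one in replicate 1 alone. CWC22, a splicing factor (ERV3-16A3_LTR, 7 tags, 40.8), and AGPAT3, a lipid acyltransferase (MER21C, 5 tags, 20.3), had one in replicate 2 alone. The exon peak lay in LINC01510 on an MLT2D element with 15 tags and a fold of 68 in replicate 2, and overlapped a replicate 1 peak on a TAGA array with 84 tags and a fold of 189. No promoter or exon ERVL peak was found again with an ERVL label.

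Few genes of blood cell identity or of the signalling pathways of the line were named for an ERVL peak, as held for genes in general. Of the genes named for any autosomal peak, 9568 in replicate 1 and 8355 in replicate 2, ERVL peaks named 679 (7.10%) and 457 (5.47%). Of 20 erythroid and haematopoietic transcription factors, 1 was named in replicate 1 and 0 in replicate 2, against 11 and 10 named for any autosomal peak. It was ERG, an ETS family factor, named with ETS2 and LINC00114 for an intergenic MLT2D peak of 10 tags and fold 39.3 that overlapped a replicate 2 peak. That replicate 2 peak did not carry an ERVL label, and a tandem-repeat peak lay at a gap of 0 bp from the MLT2D peak. Of 18 JAK-STAT genes, 0 and 1 were named, against 9 and 8 for any peak. Of 22 genes of MAPK-ERK and MNK signalling, 0 were named in either list, against 7 and 5 for any peak. Since the weakest listed peaks held 5 tags, genes without one are not shown to lack YBX1.

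The chromosomes carried ERVL peaks in different shares. On chromosome 2, 83 and 53 peaks were ERVL, which is 4.97% and 4.53% of its peaks, against 3.10% and 2.52% over all autosomes. Chromosome 5 had the highest share of replicate 1, 5.42% with 55 peaks, but 2.82% with 21 in replicate 2. Chromosome 3 had 58 and 39 (5.23% and 4.71%) and chromosome 21 had 36 and 25 (4.98% and 4.34%). Chromosome 19 had 12 and 5 (1.20% and 0.627%) and chromosome 22 had 3 and 1 (0.561% and 0.254%). Chromosome 18 also differed between the lists, at 1.99% with 11 peaks and 4.5% with 18. The number of ERVL copies per chromosome and the copy number of each chromosome in this line were not used here.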

How the data were processed

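Each deposited list gave the peaks of 1 YBX1 library against the same input. Tools named in the submitters' processing notes are MACS 1.4, Bowtie2, Trimmomatic 0.36 and bcl2fastq 02.14.01.07, with the build hg19. Per the file headers, MACS 1.4.2 was run with a p-value cutoff of 1e-05, a fragment size d of 20 bp and 1 tag kept per position, with the larger library scaled down. How the authors filtered the lists is not known here. The deposited values were the count of tags per peak, a score of -10 times log10 of p (its column name was lost, so its unit was inferred from the numbers), the fold enrichment, a false discovery rate in percent (0 throughout), and width and summit in bp. Repeat, position and gene labels were the authors'. The alignment name in the replicate 2 header carries another number than the label, and the label was followed.

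Overlaps, gaps, sides and 95% Wilson intervals, which cover counting error only, were computed in Python 3.11.15 with pandas 2.3.3 and scipy 1.17.1, and the code for overlaps, gaps and merging was tested on simulated data. A fold within 0.006 of a whole multiple of 13.5 (replicate 1) or 13.6 (replicate 2), the fold that 1 tag gives, was taken as relative to the genome-wide background. Named were elements with at least 5 peaks, the 12 shared regions with the highest lower fold, all promoter and exon peaks, the 5 strongest single-list peaks of each list, and members of 3 gene lists, except 1 JAK-STAT gene, which is not reported here; the strongest peaks of each list were named after their values were seen. The members and lists were chosen with earlier results of these data known. Sequences of the peaks were not analysed here.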

Additional observations from a re-analysis of the deposited data

How the results depend on the processing

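Of 66 alternative values of 11 results, 43 stayed within the spread or interval of the value reported and 23 moved beyond it. The 43 include values that could not move. With 2 replicates, the value of either replicate always lies within the standard deviation around their mean. Admitting the uncertain family label ERVL? added 1 peak in replicate 1 and 0 in replicate 2. The comparisons with tandem-repeat peaks and the side of the array, and their alternatives, were chosen after seeing the data; the others were planned. At a p-value of at most 1e-10, and with at least 10 tags, the mean ERVL share of autosomal peaks (2.81%) was 2.04% and 1.87%, the median fold (48.4) 67.9 and 69.5, the MLT2B3 share of ERVL peaks (21.5%) 26.1% and 27.0%, the share at the genome-wide background (29.6%) 30.1% and 25.6%, the shared regions (200) 62 and 44, and the replicate 2 share found again (67.6%) 75% and 77.0%. With at least 10 tags the replicate 1 share beside a tandem-repeat peak (77.1%) was 72.2% and the MLT2 share on the 3′ side (69.1%) was 76.2%; with array peaks of either list the latter was 74.7%. The p-value and tag cutoffs were applied to both lists, so partners and tandem-repeat neighbours had to pass them too. The shares found again by tag range, given above, used partners of any listed tag number. Requiring an overlap of 50% of the shorter peak gave shares found again of 36.8% and 59.8%. With neighbours of the same list alone 64.1% and 59.6% lay beside a tandem-repeat peak, and within 100 bp 58.4% and 60.3%. With the X and Y chromosomes the median fold was 48.7 and the share at the genome-wide background 30.4%. Leaving out each replicate gave ranges of 2.52% to 3.10% for the ERVL share, 48.2 to 48.6 for the fold, 20.4% to 22.5% for MLT2B3 and 29.4% to 29.8% for the background; results that need both lists have no such value. No paired analysis was possible because no result comes from a test and the replicates belong to 1 group. The median ERVL peak held 7 tags, so a peak called in 1 list alone is not shown to be absent from the other library.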
